A study of Danio rerio with 20 samples.

Results

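Transcripts of fatty acid oxidation and ketone metabolism were followed in the livers of male zebrafish (Danio rerio). The 37 listed genes were found in the count table by matching Ensembl identifiers to zebrafish symbols. Case was ignored, and 5 genes that had no entry under their own name were matched without the paralog suffix (cpt1aa, hadhab, acsl1a, acsl4a and abcd3a). All identifiers under a matched symbol were kept, which gave 40 genes of the 32105 in the table. ACSL4, ACADSB and ABCD3 each stand for 2 identifiers, which are given after the symbol. The 4 groups were resting fish of 1 year, fish of 1 year exercised in a swim tunnel, resting fish of 3 years and fish of 3 years exercised in a swim tunnel, each with 5 liver libraries. All were males of the strain AB JxTu, and the labels list no transgene or mutation. The sources used here give neither how long or fast the fish swam nor when the liver was taken. They also do not state that each library is a different fish. Libraries are treated as different fish below, and if they are not, the spread behind the p-values is in part technical.

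Fatty acids are burned after acyl-CoA synthetases activate them to acyl-CoA esters. Long chains enter mitochondria through the carnitine shuttle, where CPT1 makes acylcarnitine at the outer membrane, the translocase slc25a20 carries it across the inner membrane and CPT2 turns it back into acyl-CoA. A spiral of dehydrogenases, hydratases and thiolases then releases acetyl-CoA, and the electron transfer flavoprotein passes the electrons to the respiratory chain. Peroxisomes shorten very long and branched chains by a parallel route. In liver, acetyl-CoA from oxidation can be made into ketone bodies, the fuel that this organ is known to export in fasting.

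Levels are given as CPM, read counts divided by the library total and its TMM scaling factor. Library totals ranged from 33046127 to 49579666 counts, at which all 40 genes passed the filter on low counts. The 11 hepatocyte markers found in the table summed to between 62900 and 296000 CPM, and none was at 0 in any library. Transcripts of the intestine were present in 7 libraries, those with more than 100 plain CPM (without the TMM factor) of fabp2, a fatty acid binding protein of enterocytes. These were resting 1-year replicate 5, exercised 1-year replicates 3 and 4, resting 3-year replicate 3 and exercised 3-year replicates 1, 2 and 5. The 16 intestine markers summed to between 4650 and 28200 CPM in these 7 libraries and to between 483 and 3460 CPM in the other 13, where up to 6 of the 16 were at 0. The hepatocyte sum was between 62900 and 191000 CPM in the 7 and between 120000 and 296000 CPM in the 13. Exocrine pancreas markers, 15 genes, summed to between 14.3 and 174000 CPM. In bulk liver, fewer cells of a type and less RNA per cell cannot be told apart.

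The lowest of the 4 group means lay in exercised 3-year fish for 30 of the 40 genes (75.0%), beside 28.4% of the 13626 genes that averaged 1 CPM or more. Summed over all 40 genes, CPM were 4870 ± 708 in resting and 5040 ± 793 in exercised 1-year fish (SD, n = 5 each). They were 4810 ± 1430 in resting and 3140 ± 361 in exercised 3-year fish. The TMM factor, by which counts are divided, had a median of 1.271 in exercised 3-year fish (0.947 to 1.369). Its median was 0.913 in resting 1-year, 0.97 in exercised 1-year and 0.881 in resting 3-year fish. It was 0.97 to 1.395 in the 7 libraries with intestinal reads and 0.739 to 1.078 in the other 13. The part of this factor in the differences between sums was not tested. Resting 3-year fish were the most varied, with sums from 3360 to 6650 CPM, and the range of exercised 3-year fish, from 2680 to 3610 CPM, overlapped with theirs. It did not overlap with the range of exercised 1-year fish, from 4030 to 5990 CPM. The largest step by CPM was mitochondrial oxidation, with 2070 ± 391, 2090 ± 475, 2010 ± 692 and 1240 ± 170 CPM in the order of groups given above. Peroxisomal genes followed with 1620 ± 328, 1620 ± 260, 1500 ± 430 and 1020 ± 143 CPM. Electron transfer genes had 383 ± 68.5, 433 ± 70.3, 416 ± 110 and 288 ± 38.1 CPM. Ketone genes had 341 ± 104, 354 ± 93.5, 288 ± 84.8 and 220 ± 59.7 CPM. Activation genes had 154 ± 222, 138 ± 152, 57.8 ± 37.4 and 144 ± 92.3 CPM, with the lowest mean in resting 3-year fish. Of these, acsl5 gave 65.4 ± 146, 47.2 ± 95.5, 9.73 ± 21.5 and 71.1 ± 71.1 CPM. It was at most 0.497 CPM in the 13 libraries without intestinal reads. The carnitine shuttle was the step whose highest group mean was in resting 3-year fish, at 538 ± 187 CPM. It was at 305 ± 75.0, 399 ± 67.6 and 224 ± 75.1 CPM in resting 1-year, exercised 1-year and exercised 3-year fish. Of these sums, the single gene cpt1b gave 269 ± 134 CPM in resting 3-year fish. In the other groups, in the same order, cpt1b gave 61.7 ± 59.9, 182 ± 65.2 and 62.7 ± 39.5 CPM.

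**Figure D1:**
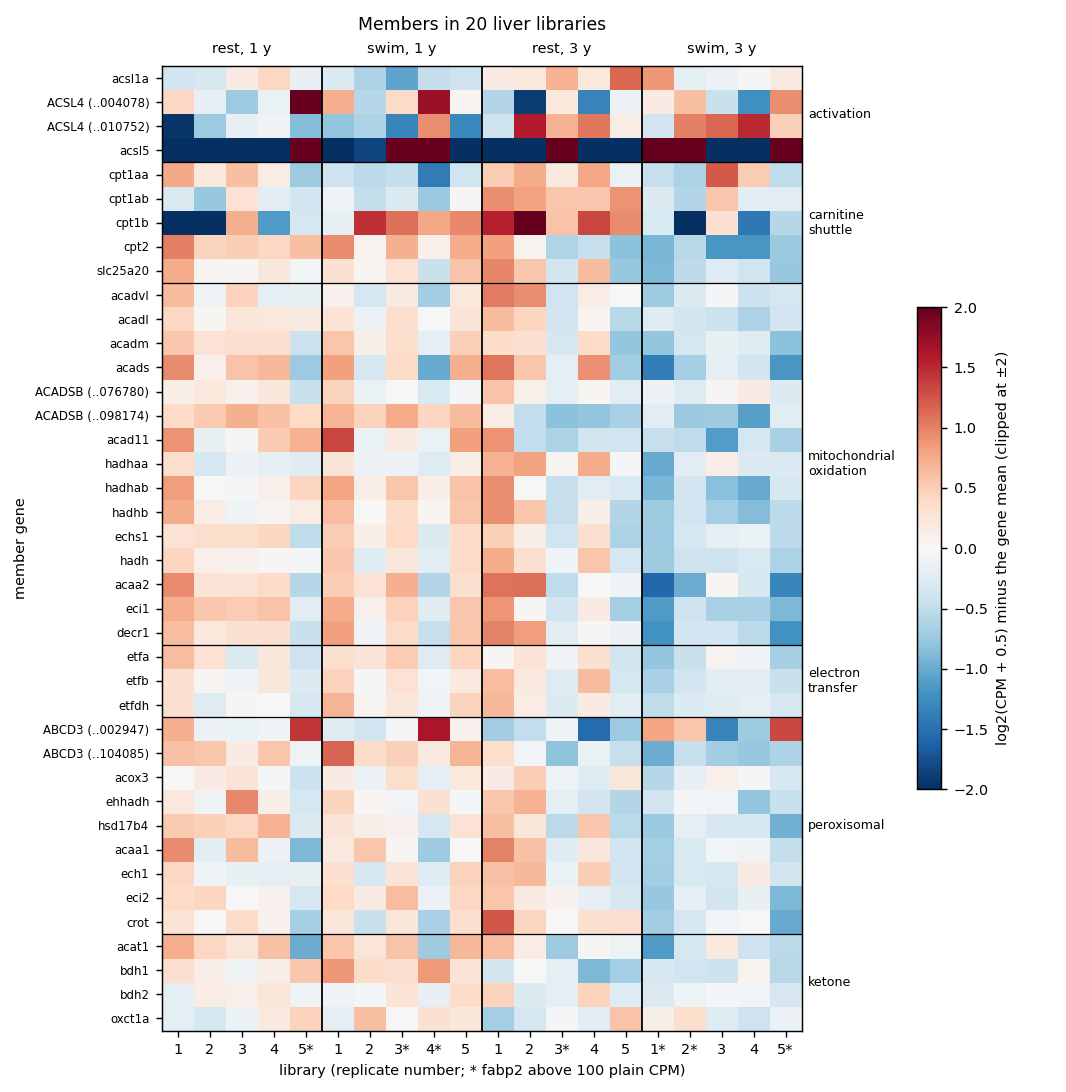
Each of the 40 genes (rows, by step) in each of the 20 libraries (columns, by group and replicate), as log2(CPM + 0.5) minus the mean of that gene over all libraries. Most rows are blue in the exercised 3-year libraries, while acsl5 is high only in the 7 libraries marked with an asterisk, those with fabp2 above 100 plain CPM.

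The test across all genes was edgeR's quasi-likelihood F-test, with p-values adjusted by Benjamini-Hochberg over the 18079 genes tested and a call at an adjusted p under 0.05. Where no other tool or setting is named, a call means this test with all 20 libraries. Whether the values of 2 groups overlap is given below as description. Genes shown library by library were picked mostly by small p, so a lack of overlap adds no support to their calls. The share of all genes without overlap was not computed. The comparisons share groups with each other, so their results are not independent. In exercised against resting 1-year fish, 0 of the 40 genes were called, where 1.38% of all genes tested were higher and 1.47% lower. At an unadjusted p under 0.05 there were 3 of 40, against 2677 of 18079 genes in all. DESeq2 and limma-voom called 0 of the 40, where they called 6.63% and 2.88% of all genes. The median log2 fold change of the 40 was 0.03, beside -0.04 over all genes tested. The smallest p-values belonged to cpt1aa (-0.90 ± 0.35 SE, adjusted p = 0.222), cpt1b (1.56 ± 0.63, adjusted p = 0.235) and acsl1a (-0.81 ± 0.35, adjusted p = 0.279), and none of these passed.

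In exercised against resting 3-year fish, edgeR called 0 of the 40 genes and also 0% of all genes in either direction. The log2 fold change was below 0 in 34 of the 40, against 8509 of 18079 genes in all. Its median was -0.52, beside 0.04 over all genes tested. At an unadjusted p under 0.05 there were 22 of 40, against 2952 of 18079 genes in all. DESeq2 called 7 of the 40 as lower (cpt1ab, cpt1b, hadhaa, hadhb, hadh, decr1 and crot), where it called 3.41% of all genes in either direction, and limma-voom called 0. The smallest edgeR p-values belonged to cpt1ab (-0.86 ± 0.21, adjusted p = 0.108), hadh (-0.78 ± 0.20, adjusted p = 0.117) and decr1 (-1.09 ± 0.30, adjusted p = 0.132).

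In resting fish of 3 against 1 year, cpt1ab rose and the ACADSB gene ENSDARG00000098174 fell. These were the called members, 1 of 40 in each direction, where 1.23% of all genes were higher and 2.26% lower. The median log2 fold change of the 40 was 0.01. Without the 7 libraries with intestinal reads 0 of the 40 were called, where 2.4% of all genes were called in either direction, and cpt1ab then had an adjusted p of 0.057 and the ACADSB gene one of 0.0621.

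In exercised fish of 3 against 1 year, 12 of the 40 genes fell and 0 rose, where 5.25% of all genes tested were lower and 3.91% higher. The 12 were the peroxisomal transporter gene ABCD3 ENSDARG00000104085, the shuttle enzyme cpt2, the mitochondrial ACADSB ENSDARG00000098174, hadhab, eci1, hadhb, decr1, acad11 and hadh, the electron carrier etfdh, the peroxisomal eci2 and the ketone enzyme bdh1. The log2 fold change was below 0 in 34 of the 40, against 8132 of 18079 genes in all. Its median was -0.59, beside 0.08 over all genes tested. Leaving out 1 library at a time, 6 of the 12 were called in all 10 fits (ABCD3 ENSDARG00000104085, ACADSB ENSDARG00000098174, bdh1, cpt2, eci1 and hadhab). The count dropped to 6 without exercised 1-year replicate 1, 3 or 5 or exercised 3-year replicate 1, and to 7 without exercised 3-year replicate 4 or 5. Those fits called 4.7% to 6.9% of all genes in either direction. Leaving out the 7 libraries with intestinal reads left 3 exercised fish of 1 year and 2 of 3 years. In that fit 2 of the 40 were lower (ABCD3 ENSDARG00000104085 and ACADSB ENSDARG00000098174) and 1 was higher (cpt1aa). Of all genes, 2.41% were called in either direction. The rest of the 12 were not called there, among them cpt2 (adjusted p = 0.0575), hadhab (0.082), eci1 (0.112) and bdh1 (0.189). The median log2 fold change of the 40 was then -0.67, with 36 of 40 below 0, beside -0.06 over all genes.

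Whether the exercise effect differed between ages was tested by the interaction of age and exercise. It called 0 of the 40 genes, where 0.542% of all genes tested were called as higher and 0.437% as lower. Of the 40, 15 had an unadjusted p under 0.05, against 2625 of 18079 genes in all. The log2 interaction was below 0 in 35 of the 40 genes, against 8361 of 18079 genes in all. Its median was -0.55, beside 0.07 over all genes. The smallest p belonged to cpt1b (-3.66 ± 0.90, adjusted p = 0.0623), followed by etfdh (-0.77 ± 0.26, adjusted p = 0.2) and hadh (-0.83 ± 0.28, adjusted p = 0.201). DESeq2 and limma-voom each called 1 of the 40, which was cpt1b (adjusted p = 0.0013 and 0.0418), where they called 3.8% and 0.802% of all genes.

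**Figure D2:**
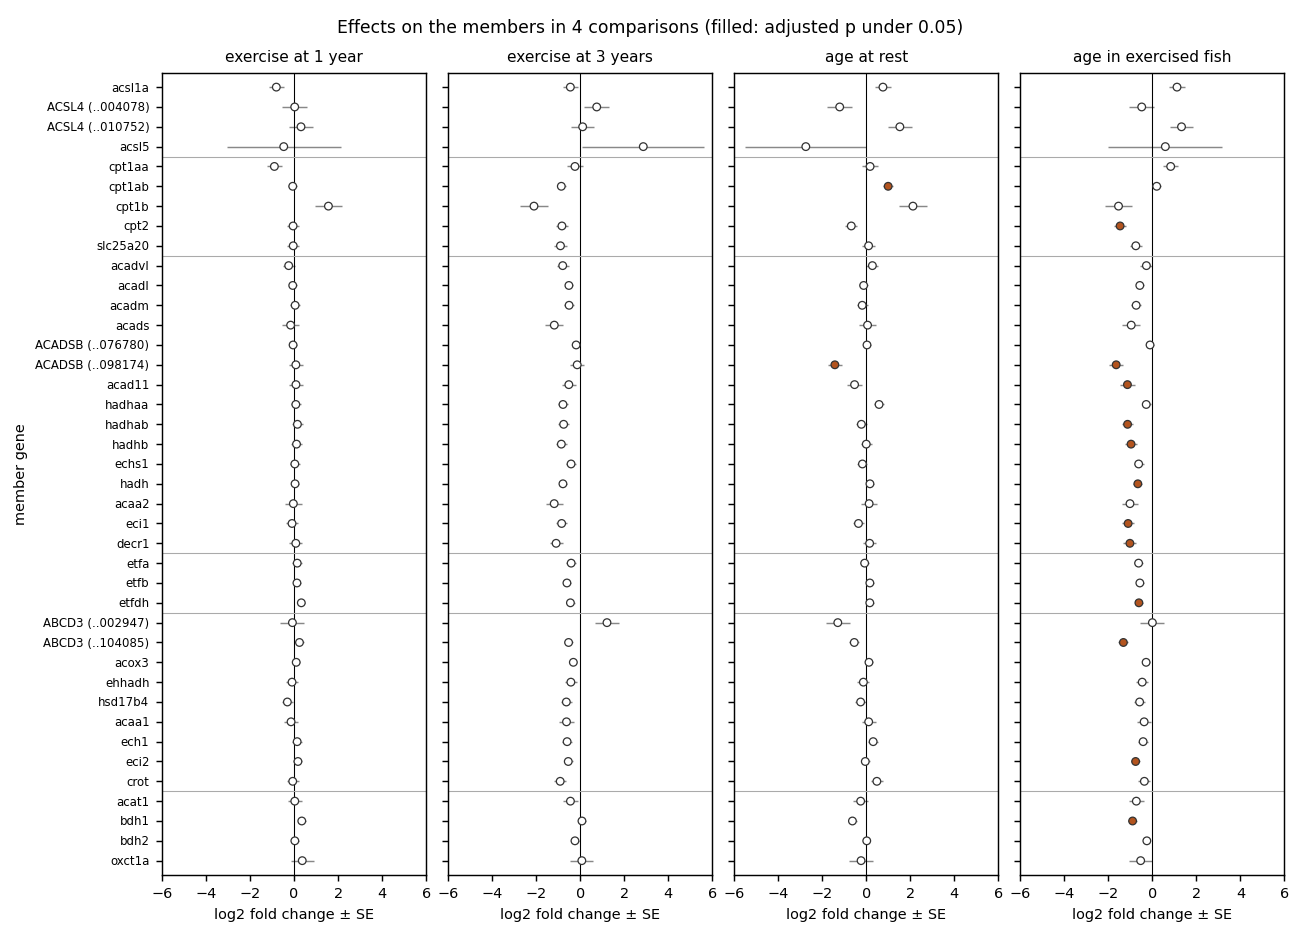
Log2 fold change ± SE of each of the 40 genes (rows, by step) in the 4 comparisons between groups, with filled points for genes with an adjusted p under 0.05 in edgeR. The filled points are 12 in exercised fish of 3 against 1 year, all left of 0, and 2 in resting fish of 3 against 1 year, cpt1ab to the right and ACADSB ENSDARG00000098174 to the left.

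Per kilobase of gene, acadm, the medium-chain acyl-CoA dehydrogenase, was the most abundant of the 40 transcripts, with a median of 280 CPM per kb over the 20 libraries. It was followed by etfb with 146, acat1 with 131, ABCD3 ENSDARG00000104085 with 114 and hsd17b4 with 91.9 CPM per kb. The ranges of neighbours in this order overlapped widely, as acadm ranged from 137 to 357 and etfb from 96.1 to 233 CPM per kb. At the low end were acsl1a with 0.234, oxct1a with 0.107 and acsl5 with 0.0556 CPM per kb. Across libraries, acox3 and bdh2 varied least, with a coefficient of variation of 18.2% each, and cpt1b and acsl5 varied most, with 81.5% and 187%.

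Of the 4 activation genes, edgeR called none in any comparison. DESeq2 called acsl1a and ACSL4 ENSDARG00000010752 as higher in exercised fish of 3 against 1 year, and the latter also for age at rest. It called 16.7% and 8.41% of all genes in these comparisons. Transcripts of acsl5, an acyl-CoA synthetase known from intestine, were between 17.8 and 327 CPM in the 7 libraries with intestinal reads and between 0 and 0.497 CPM in the other 13. These ranges did not overlap, and each of the 4 groups held high and low libraries. ACSL4 ENSDARG00000004078, which in mammals prefers arachidonic acid, ranged from 60.9 to 221 CPM in the 7 and from 14.1 to 89.5 CPM in the 13. The CPM of acsl1a, a long-chain synthetase, were 0.81, 0.863, 1.41, 1.77 and 1.02 in resting and 0.9, 0.616, 0.324, 0.728 and 0.782 in exercised 1-year fish. In 3-year fish they were 1.42, 1.48, 2.28, 1.47 and 3.29 at rest and 2.63, 0.985, 1.07, 1.18 and 1.43 after exercise. Every exercised 3-year value was above every exercised 1-year value, but acsl1a did not pass there (log2 fold change 1.12, adjusted p = 0.0522). It passed with the stricter filter on low counts, and without the 7 libraries with intestinal reads the value was 0.48 (adjusted p = 0.631). The other ACSL4 gene, ENSDARG00000010752, was at 1, 3.01, 4.69, 5.04 and 2.67 CPM in resting and 2.85, 3.27, 1.86, 10.5 and 1.87 CPM in exercised 1-year fish. Its values in 3-year fish were 3.86, 16.9, 8.93, 11.6 and 5.96 CPM at rest and 4.01, 11.2, 12.4, 15.9 and 7.59 CPM after exercise. The age groups overlapped, with log2 fold changes of 1.53 at rest (adjusted p = 0.135) and 1.33 after exercise (adjusted p = 0.128).

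In the carnitine shuttle the genes went different ways. The transcript of cpt2, the enzyme at the inner membrane, was at 95.2, 64.2, 66.5, 63.4 and 71.6 CPM in resting and at 91.8, 49.6, 77.9, 50.7 and 79.3 CPM in exercised 1-year fish. In 3-year fish cpt2 was at 84, 49.4, 31, 34.2 and 26.5 CPM at rest and at 24.8, 31.9, 20.9, 20.9 and 28 CPM after exercise. All 5 exercised 3-year values lay below all exercised 1-year values, and cpt2 fell by 1.46 ± 0.28 on the log2 scale (adjusted p = 0.00461). At rest, replicate 1 of the 3-year fish lay among the 1-year values and the other 4 lay below them (log2 fold change -0.68, adjusted p = 0.192). The CPM of cpt1ab, a CPT1 gene of the type found in mammalian liver, were 41.1, 29.4, 61.2, 42.6 and 38.3 in resting and 46.4, 35.7, 40.7, 29.9 and 50.8 in exercised 1-year fish. Its CPM were 95.8, 87.9, 73.6, 73 and 93.4 in resting and 41.5, 33.3, 72.7, 43.1 and 43.1 in exercised 3-year fish. Every resting 3-year library was thus above every library of the other 3 groups, and cpt1ab rose with age at rest (0.99 ± 0.21, adjusted p = 0.0158). That call was lost without resting 1-year replicate 1 (adjusted p = 0.0517) or 2 (adjusted p = 0.0554) and in a fit of the resting groups alone (adjusted p = 0.0531). The other liver-type gene, cpt1aa, averaged 40.5 ± 14.1, 21.7 ± 5.35, 45.7 ± 11.4 and 38.8 ± 24.5 CPM in the order of groups above (SD, n = 5). With all 20 libraries cpt1aa was not called (log2 fold change 0.83 in exercised fish of 3 against 1 year, adjusted p = 0.149). It was called as higher there once the 7 libraries with intestinal reads were left out (1.30, adjusted p = 0.0449). That fit had 2 exercised fish of 3 years, at 78.3 and 47.3 CPM, and 3 of 1 year, at 24.7, 22.8 and 25.1 CPM. It called 2.41% of all genes in either direction. The translocase slc25a20 was at 50.7 ± 9.19 CPM in exercised 3-year fish and at 87.7 ± 21.9, 85.2 ± 21.0 and 94.3 ± 42.8 CPM in the others. With all groups in the edgeR fit it was not called. In exercised fish of 3 against 1 year, DESeq2 and edgeR on the exercised groups alone called it as lower. These fits called 16.7% and 10.4% of all genes.

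The most variable shuttle gene was cpt1b, the CPT1 type that predominates in mammalian muscle. Its CPM were 23.7, 7.25, 159, 43.6 and 75.3 in resting and 86, 265, 206, 165 and 187 in exercised 1-year fish. In 3-year fish they were 282, 488, 143, 244 and 186 at rest and 78, 16.6, 119, 35.4 and 64.9 after exercise. The exercised group thus had the higher mean at 1 year and the lower mean at 3 years, and the ranges did not overlap at 3 years. No comparison of cpt1b was called by edgeR, at adjusted p = 0.235 for exercise at 1 year, 0.177 for exercise at 3 years, 0.0753 for age at rest and 0.135 for age in exercised fish. DESeq2 and limma-voom called it as higher with age at rest, and DESeq2 as lower for exercise at 3 years. For age at rest they called 8.41% and 3.26% of all genes, and DESeq2 called 3.41% for exercise at 3 years. Skeletal muscle markers, 12 genes, summed to between 7.44 and 469 CPM, at 7.44 CPM in resting 3-year replicate 2, with the highest cpt1b, and at 273 CPM in replicate 1 of the same group, with the second highest. The part of muscle reads in cpt1b was not tested. Per kilobase, cpt1b made up more than 50% of the 3 CPT1 transcripts in 15 of 20 libraries. At 1 year its median share was 41.5% at rest and 80.5% after exercise, and at 3 years it was 70.9% at rest and 50.6% after exercise. Single libraries ranged from 12.2% to 85.4%.

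**Figure D3:**
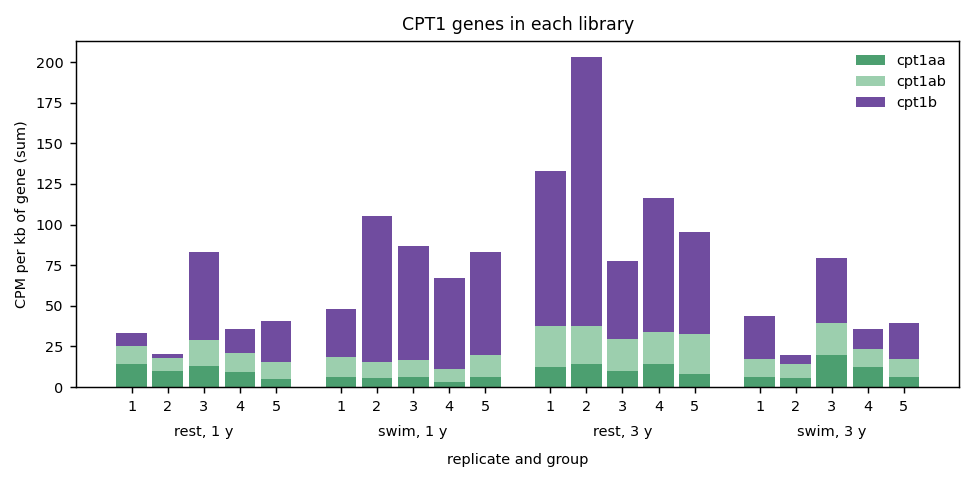
Stacked bars give CPM per kilobase of cpt1aa, cpt1ab and cpt1b in each library, by group and replicate. The cpt1b part is above 50% of the bar in all 5 exercised 1-year and all 5 resting 3-year libraries, in 2 of 5 resting 1-year and in 3 of 5 exercised 3-year libraries.

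Mitochondrial oxidation held 7 of the 12 falls in exercised fish of 3 against 1 year, out of 15 genes, beside 5.25% of all genes tested. All 15 had a log2 fold change below 0 there, against 8132 of 18079 genes in all. Subunit genes of the trifunctional protein, which runs the last 3 reactions of long-chain oxidation, were among the 7 falls. Its alpha subunit gene hadhab was at 170, 94.5, 91.8, 102 and 128 CPM in resting and at 163, 104, 139, 104 and 140 CPM in exercised 1-year fish. In 3-year fish hadhab was at 180, 95.5, 68.9, 80.9 and 76.2 CPM at rest and at 49.9, 72.1, 53, 47 and 75.9 CPM after exercise. No exercised 3-year value reached the lowest of the other age, and hadhab fell by 1.12 ± 0.26 on the log2 scale (adjusted p = 0.0127). The beta subunit gene hadhb went from 194 ± 38.6 to 99.6 ± 13.2 CPM (-0.97 ± 0.25, adjusted p = 0.0242), also without overlap. The second alpha gene, hadhaa, was not called (-0.28, adjusted p = 0.443). Its means were 88.6 ± 13.7 and 73.1 ± 19.2 CPM in exercised fish of 1 and 3 years and 126 ± 32.9 CPM in resting 3-year fish, the highest of the 4 groups.

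The auxiliary enzymes eci1, which moves the double bond of unsaturated chains, and decr1, which reduces their dienoyl intermediates, fell as well. Exercised fish of 1 and 3 years averaged 63.0 ± 16.1 and 29.4 ± 5.52 CPM of eci1 (-1.10 ± 0.27, adjusted p = 0.0162) and 94.9 ± 31.6 and 46.9 ± 13.2 CPM of decr1 (-1.02 ± 0.30, adjusted p = 0.0382). The hydroxyacyl-CoA dehydrogenase hadh went from 116 ± 27.6 to 73.2 ± 8.61 CPM (-0.66 ± 0.20, adjusted p = 0.0458) and acad11, an acyl-CoA dehydrogenase, from 164 ± 78.7 to 74.9 ± 14.1 CPM (-1.13 ± 0.34, adjusted p = 0.0407). Their calls, with those of hadhb and decr1, were lost in 5 to 8 of the 10 fits that left out a library. The chain-length acyl-CoA dehydrogenases acadvl, acadl, acadm and acads, the hydratase echs1 and the thiolase acaa2 were not called by edgeR in any comparison, with log2 fold changes from -1.01 to -0.27 in exercised fish of 3 against 1 year. There DESeq2 called acadl, acadm, echs1 and acaa2 as lower, where it called 16.7% of all genes. With edgeR on the exercised groups alone acadl and acadm were called, beside 10.4% of all genes. Between 3-year groups, acads and acaa2 had values of -1.18 each for exercise, at adjusted p = 0.197 and 0.185.

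The 2 ACADSB genes, for the dehydrogenase of short branched chains from isoleucine, differed from each other. ENSDARG00000098174 was at 1.75, 1.96, 2.3, 2.05 and 1.75 CPM in resting and at 2.22, 1.85, 2.35, 1.81 and 2.15 CPM in exercised 1-year fish. At 3 years it was at 1.39, 0.712, 0.466, 0.491 and 0.594 CPM at rest and at 0.962, 0.524, 0.537, 0.307 and 0.972 CPM after exercise. The ages did not overlap in either state, and ACADSB ENSDARG00000098174 fell by 1.43 ± 0.32 at rest (adjusted p = 0.0191) and by 1.64 ± 0.32 in exercised fish (adjusted p = 0.00538). At rest the call was lost without 3-year replicate 3 (adjusted p = 0.053) and in a fit of the resting groups alone (adjusted p = 0.0628). ACADSB ENSDARG00000076780 carried most of the reads of this symbol, at 10.1 to 20.9 CPM, and showed log2 fold changes of 0.03 and -0.10 in the same comparisons. The sources used here do not say how reads shared by both genes were counted, so the split between them is uncertain.

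For the electron transfer flavoprotein and its oxidoreductase, edgeR called 1 of 3 genes. It was lower in exercised fish of 3 against 1 year, beside 5.25% of all genes tested. In exercised fish of 3 against 1 year, DESeq2 called all 3 as lower, where it called 16.7% of all genes. There edgeR on the exercised groups alone called etfb and etfdh, beside 10.4% of all genes. The CPM of etfdh, the oxidoreductase that hands electrons to ubiquinone, were 111, 74.4, 90.3, 89.3 and 70.2 in resting and 143, 92.6, 104, 84.4 and 121 in exercised 1-year fish. They were 139, 98.3, 73, 100 and 75.9 in resting and 62, 73.1, 74.9, 77.5 and 70.3 in exercised 3-year fish. Exercised fish of the 2 ages did not overlap, and etfdh fell by 0.61 ± 0.19 on the log2 scale (adjusted p = 0.0468), a call that held in 1 of the 10 fits without a library. The beta subunit etfb was at 259, 218, 201, 245 and 174 CPM in resting and at 291, 204, 258, 203 and 242 CPM in exercised 1-year fish. At 3 years etfb was at 322, 242, 175, 325 and 165 CPM at rest and at 134, 162, 181, 179 and 154 CPM after exercise. The highest exercised 3-year value of etfb, 181 CPM, was below the lowest exercised 1-year value, 203 CPM, with a log2 fold change of -0.57 that did not pass (adjusted p = 0.0743). The alpha subunit etfa had -0.62 (adjusted p = 0.083).

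Among the 9 peroxisomal genes 2 fell in exercised fish of 3 against 1 year, beside 5.25% of all genes tested. ABCD3 ENSDARG00000104085, for the membrane transporter PMP70 that imports branched and long acyl-CoA, had the smallest p of the 40 genes. It was at 475, 465, 357, 466 and 297 CPM in resting and at 714, 410, 444, 360 and 510 CPM in exercised 1-year fish. At 3 years ABCD3 ENSDARG00000104085 was at 404, 306, 182, 289 and 231 CPM at rest and at 160, 231, 196, 188 and 206 CPM after exercise. All exercised 3-year fish lay below all exercised 1-year fish, and this gene fell by 1.31 ± 0.22 on the log2 scale (adjusted p = 0.00233). Without the libraries with intestinal reads the value was -1.58 (adjusted p = 0.0293). At rest the ages overlapped (-0.55, adjusted p = 0.199). The other ABCD3 gene, ENSDARG00000002947, was at 1.09 to 13.8 CPM, highest in exercised 1-year replicate 4 and resting 1-year replicate 5, both with intestinal reads, and was not called.

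The isomerase eci2 was at 150, 153, 113, 120 and 90.2 CPM in resting and at 149, 127, 174, 105 and 151 CPM in exercised 1-year fish. At 3 years eci2 was at 167, 129, 120, 101 and 90.5 CPM at rest and at 66.8, 100, 87.4, 102 and 60.6 CPM after exercise. The exercised groups met but did not overlap, at 102 and 105 CPM, and eci2 fell by 0.76 ± 0.20 on the log2 scale (adjusted p = 0.0272), called in 5 of the 10 fits without a library. The remaining peroxisomal enzymes were acox3, an acyl-CoA oxidase, the multifunctional enzymes ehhadh and hsd17b4, the thiolase acaa1, the isomerase ech1 and crot, which makes carnitine esters of medium chains. With edgeR none of these was called in any comparison. Their log2 fold changes in exercised fish of 3 against 1 year were from -0.58 to -0.28. DESeq2 called crot as lower for exercise at 3 years, where it called 3.41% of all genes. The 3-year groups of crot, which ranged from 52.1 to 251 CPM in all, did not overlap (81.6 ± 23.1 CPM after exercise and 153 ± 56.4 CPM at rest, log2 fold change -0.91, adjusted p = 0.17).

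Of the 4 ketone genes, bdh1, the mitochondrial enzyme that interconverts acetoacetate and hydroxybutyrate, was called. Its CPM were 21.8, 18.9, 16, 18.9 and 25.3 in resting and 31.9, 22.4, 21.6, 31.6 and 20.9 in exercised 1-year fish. At 3 years they were 13.3, 17.2, 15.1, 9.02 and 10.6 at rest and 13.7, 13, 12.7, 18.1 and 11.5 after exercise. Exercised fish of the 2 ages did not overlap. In them bdh1 fell by 0.90 ± 0.19 on the log2 scale (adjusted p = 0.00881), where 5.25% of all genes tested were lower. Without the libraries with intestinal reads the value was -0.78 (adjusted p = 0.189). At rest the ages overlapped and the value of -0.63 did not pass in edgeR (adjusted p = 0.079). DESeq2 called bdh1 as lower with age at rest, where it called 8.41% of all genes. The acetoacetyl-CoA thiolase acat1 was at 389, 312, 277, 353 and 118 CPM in resting and at 343, 276, 348, 143 and 370 CPM in exercised 1-year fish. At 3 years acat1 was at 361, 260, 141, 237 and 217 CPM at rest and at 106, 183, 267, 176 and 161 CPM after exercise. The lowest value in each of the 4 groups was in a library with intestinal reads, the groups overlapped, and acat1 was not called (-0.73 in exercised fish of 3 against 1 year, adjusted p = 0.175). Cytosolic bdh2 stayed between 23.5 and 40.8 CPM in the 20 libraries, with no call. The transferase gene oxct1a, for the enzyme that lets tissues burn ketone bodies and that mammalian hepatocytes are known to lack, had 2 to 44 reads per library (0.0661 to 0.876 CPM). Its paralog oxct1b, which is not among the listed genes, was at 185 to 1450 CPM.

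**Figure D4:**
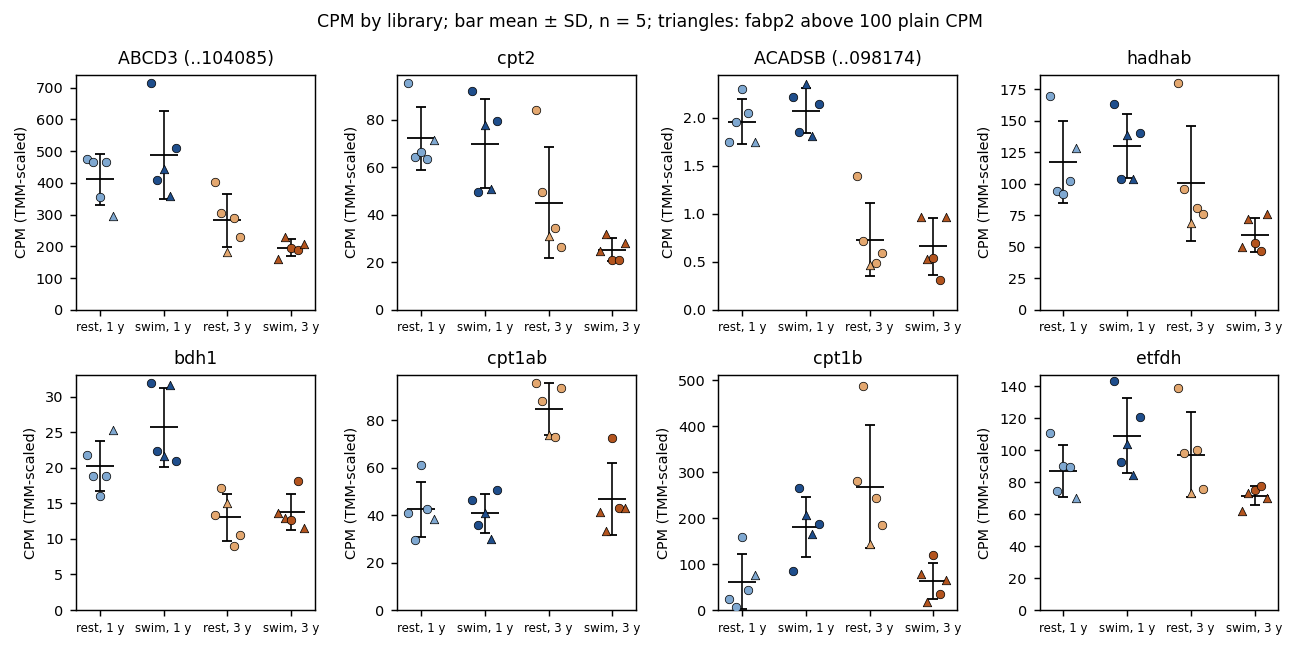
CPM of 8 of the genes in each library (points, triangles for the libraries with fabp2 above 100 plain CPM), with the mean ± SD of each group of 5. In exercised fish the 3-year points of ABCD3 ENSDARG00000104085, cpt2, ACADSB ENSDARG00000098174, hadhab, bdh1 and etfdh lie below all 1-year points, while cpt1ab is highest in resting 3-year fish. The genes were picked by small p, and cpt1b after its values were seen, so this separation is no further support for the calls.

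Other genes were listed from the pathway, from related lipid and peroxisome functions and from nuclear receptors. Of the 43 tested, 11 were lower and 1 higher in exercised fish of 3 against 1 year, beside 5.25% and 3.91% of all genes tested. The lower ones with the smallest p were pecr, a peroxisomal enoyl-CoA reductase (-0.79 ± 0.16, adjusted p = 0.00739), and ACAD9, an acyl-CoA dehydrogenase also known as a complex I assembly factor (-1.46 ± 0.31, adjusted p = 0.00859). They were followed by oxct1b, the paralog of oxct1a (-1.42 ± 0.34, adjusted p = 0.0151), and the fatty acid transporter SLC27A6 (-1.64 ± 0.41, adjusted p = 0.018). The gene that was higher was RXRA ENSDARG00000057737, a nuclear receptor that pairs with the PPAR factors, named here after its values were seen (1.05 ± 0.27, adjusted p = 0.0218). In exercised against resting 1-year fish the same RXRA gene was lower, from 26.5 ± 8.44 to 12.9 ± 5.44 CPM (-1.04 ± 0.27, adjusted p = 0.0442). It was the single call among the 43 there, where 1.47% of all genes were lower. The resting and exercised 3-year groups had means of 26.2 ± 2.43 and 26.7 ± 8.05 CPM of this gene. Both RXRA calls thus rest on the low mean of exercised 1-year fish and are not separate results. None of the 43 was called for exercise at 3 years, for age at rest or in the interaction.

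The levels of the 40 genes were set beside the markers of cell types in each library. The median over the 40 genes of the deviation from each gene's mean, on the scale of log2(CPM + 0.5), was between -0.69 and 0.31 in the 7 libraries with intestinal reads and between -0.35 and 0.60 in the other 13. The middle library was at -0.255 in the 7 and at 0.166 in the 13. The hepatocyte sum had a median of 97800 CPM in exercised 3-year fish, against 191000 in exercised 1-year, 214000 in resting 1-year and 256000 CPM in resting 3-year fish. Exercised 3-year replicates 1, 2 and 5 had 62900, 97800 and 63600 CPM. The median of this marker level was thus lowest in the group that held the lowest mean for 30 of the 40 genes. In exercised 3-year fish all 5 libraries were below 0, from -0.69 to -0.23. Replicates 3 and 4 of that group, which had hepatocyte sums of 186000 and 217000 CPM and no fabp2 above 100 plain CPM, were at -0.23 and -0.32. They also had the highest myeloid sums of the 20 libraries, 544 and 652 CPM over 14 genes, against 66.0 to 341 CPM in the rest. Resting 3-year replicate 5, with a hepatocyte sum of 120000 CPM and a pancreas sum of 96900 CPM, was at -0.35. The part of the marker levels in the differences between groups was not tested, beyond the values given above without the 7 libraries.

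**Figure D5:**
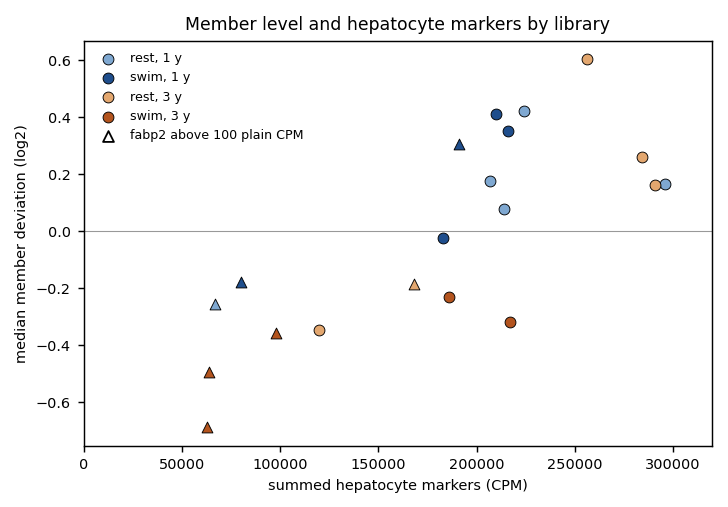
Summed hepatocyte markers (CPM) against the median deviation of the 40 genes (log2) in each of the 20 libraries, coloured by group, with triangles for the 7 libraries with intestinal reads. The 5 exercised 3-year libraries all lie below 0, including replicates 3 and 4 at -0.23 and -0.32, while libraries of the other groups lie on both sides.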

How the data were processed

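RNA of 20 zebrafish liver samples was sequenced from TruSeq libraries (kit v2), which do not mark strand, per the labels' protocols, so reads of overlapping and antisense genes cannot be separated. The authors deposited raw read counts per gene and RPKM. The submitters' processing notes name bcl2fastq 1.8.4, STAR 2.4.1d, featureCounts 1.4.6-p4 and build GRCz10. The deposited RPKM (counts scaled by gene length and library total) were divided by totals of other libraries. Over 1399 genes, the implied gene length varied by at most 0.00013 (coefficient of variation) with totals repeated down the rows, and by a median of 0.14 with each library's own. The error reached 0.59 on the log2 scale, so the RPKM served only to recover gene lengths. Symbols came from a table naming 26269 of the genes. No genome was used, so no coordinates or sequences are given.

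The main test on the counts was edgeR 4.0.16 (R 4.3.3; quasi-likelihood F-test, filterByExpr, TMM, 4 group means, no covariate, since the labels name no batch). SE were taken from the test statistic. The procedure was tested on simulated data. Total counts were 33046127 to 49579666, and precision is that of 5 libraries per group. The genes, lists and tests were chosen with earlier results of these data known. Called members are named. For each step, the 2 genes with the smallest p over the 4 group comparisons are given in every library, and cpt1b was added after its values were seen. Alternatives were DESeq2 1.42.0, limma-voom (limma 3.58.1), other size factors, filters, 2-group fits and leaving out libraries. Leaving out the 7 libraries with intestinal reads was chosen after seeing the data. Marker lists of erythrocytes (17.8 to 458 CPM summed), kidney (31.0 to 744 CPM) and adipocytes (557 to 2120 CPM) were also summed.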

Additional observations from a re-analysis of the deposited data

Results flagged for a closer look

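In 6 of 52 tested groups of 5 libraries, the highest value stood apart from the next by more than 0.71 of the range of its group (Dixon's 95% limit). Both ends of each group were tested. The limit flags about 1 in 20 groups when values are normally distributed and groups independent. Most values here were untransformed CPM of genes from the same libraries, so 6 of 52 cannot be held against that rate. Resting 3-year replicate 1 stood apart for hadhab (180 CPM) and for ACADSB ENSDARG00000098174 (1.39 CPM). Resting 1-year replicate 1 was high for cpt2 (95.2 CPM). In exercised 3-year fish, replicate 3 was high for cpt1ab (72.7 CPM) and replicate 1 for acsl1a (2.63 CPM). ACSL4 ENSDARG00000010752 was at 10.5 CPM in exercised 1-year replicate 4.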

How the results depend on the processing

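No setting reversed a called direction. With DESeq2, 7 of the 40 genes were called for exercise at 3 years, 5 for age at rest, 21 for age in exercised fish and 1 in the interaction, beside 3.41%, 8.41%, 16.7% and 3.8% of all genes. With limma-voom these counts were 0, 3, 10 and 1, beside 0%, 3.26%, 9.13% and 0.802% of all genes. In a fit of the compared groups alone, 0 were called for age at rest and 16 for age in exercised fish, beside 0.882% and 10.4% of all genes. Without the 7 libraries with intestinal reads 0 were called for age at rest and 3 for age in exercised fish, beside 2.4% and 2.41% of all genes. Leaving out each library in turn gave 1 to 3 calls for age at rest (1 without resting replicate 1 or 2 of the younger fish or 3 of the older). It gave 6 to 17 for age in exercised fish and 0 to 1 in the interaction (1 without resting 1-year replicate 3 or exercised 3-year replicate 3). In these fits 1.3% to 4.56%, 4.7% to 13.7% and 0.314% to 1.18% of all genes were called. The cause of these shifts was not tested. Other filters and size factors left 8 to 13 calls for age in exercised fish, beside 4.83% to 11.2% of all genes. Of the values of named genes under the alternatives, 346 kept their side of the threshold, 65 no longer passed it and 7 newly passed it. No paired analysis was possible because the replicate numbers were given in accession order and do not link samples. Genes under about 1 CPM, such as oxct1a, rest on few reads. The called ACADSB ENSDARG00000098174 was also near this level, at 0.307 to 1.39 CPM in 3-year fish.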

Other observations

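These genes were picked after their values were seen, and they are among the 43 other genes tested above. In exercised fish of 3 against 1 year, edgeR called oxct1b (values above) and pparaa (-1.11 ± 0.28, adjusted p = 0.0184) as lower. SLC16A6 ENSDARG00000102793 and CD36 were not called in any comparison. The transporter gene SLC16A6 ENSDARG00000102793 had 1 read (0.0247 CPM) in resting 3-year replicate 5 and 585 to 3248 reads in each of the other 19 libraries. In zebrafish, slc16a6a is known as a carrier that exports ketone bodies from hepatocytes. The table used here gives the symbol SLC16A6 to 2 genes, and which of them is slc16a6a was not settled.

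Per kilobase, oxct1b had a median of 344 CPM per kb over the 20 libraries, above the medians of all 40 genes described, where oxct1a had 0.107. Its CPM ranged from 185 to 1450. The transcription factor gene pparaa, a PPAR alpha paralog, averaged 36.9 ± 5.2 CPM in exercised 1-year fish (SD, n = 5 each). It averaged 18.1 ± 5.58, 18 ± 7.17 and 17.1 ± 3.73 CPM in resting 1-year, resting 3-year and exercised 3-year fish. For exercise at 1 year edgeR did not call pparaa (1.03 ± 0.28, adjusted p = 0.0516). CD36, a fatty acid uptake receptor, was between 59.7 and 697 CPM in the 7 libraries with intestinal reads and at most 0.942 CPM in the other 13.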
